A study of Mus musculus with 2 samples.

Results

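The 7 genes described here were Mdk, its syndecan receptors Sdc1, Sdc2, Sdc3 and Sdc4, and the receptors Lrp1 and Ncl, chosen by symbol from the 31054 genes of the count tables with earlier results of these data known. All 7 were found in both libraries. Midkine, the product of Mdk, is a secreted heparin-binding growth factor. It docks on the heparan sulfate chains of syndecans, the transmembrane proteoglycans of the cell surface, and binds Lrp1, an endocytic receptor of the low-density lipoprotein receptor family, which also carries protease-inhibitor complexes, lipoproteins and matrix proteins into the cell. Nucleolin, the product of Ncl, is mainly a nucleolar protein of ribosome biogenesis, and the part that reaches the cell surface also binds midkine. In tissue, this group of genes is known for growth factor signalling between mesenchymal and epithelial cells.

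The cells were CD31- CD45- cells of the gonadal white adipose tissue (gWAT) of 18-month-old male mice of the genotype p16-CreERT2/R26-LSL-tdTomato, all given tamoxifen, and they were sorted into Tom+ and Tom- cells by tdTomato fluorescence. CreERT2 is driven by the p16 gene and removes a stop cassette in front of tdTomato, so the reporter marks cells in which p16 was active during tamoxifen, and remains after p16 is switched off. There was 1 droplet library of each sort, so no test between Tom+ and Tom- cells was possible, and a difference between the sorts cannot be told apart from a difference between the 2 preparations. The number of mice in each library is not given in the sources used here.

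In cells with over 1000 but under 7000 genes, and with mitochondrial UMIs under 8%, levels were summed over cells and given as CPM, the unique molecular identifiers (UMIs) of a gene per 1000000 UMIs of the class. Ranges in parentheses are exact 95% intervals and cover counting error only. Cells with at least 10 UMIs of Msln, Upk3b, Krt19, Lrrn4 and Upk1b together were taken as mesothelial, the lining cells of the fat pad, and cells with under 5 as stromal. This gave 3263 stromal and 250 mesothelial cells of 3524 in the Tom+ library, and 4800 and 1887 of 6717 in the Tom- library. The classes were compared by other markers. The summed level of 10 mesothelial markers outside the rule was 11006 and 10883 CPM in Tom+ and Tom- mesothelial cells, against 83.7 and 167 CPM in stromal cells. The summed level of 8 adipose progenitor markers was 29967 and 31304 CPM in stromal cells, and 13774 and 15419 CPM in mesothelial cells, although Cd34, one of the 8, was higher in mesothelial (435 and 417 CPM) than in stromal cells (294 and 292 CPM). In a separate clustering that left the 7 genes out, 196 Tom+ and 94 Tom- cells formed a cluster led by immunoglobulin genes, although CD45+ cells had been sorted away. Of these, 179 and 91 fell in the stromal class, in which 7 B and plasma cell markers summed to 59905 CPM in the Tom+ library, more than its progenitor markers, and 14535 CPM in the Tom- library. The barcodes of 506 Tom+ and 284 Tom- cells were also listed in the other library. The reporter RNA went with the sort, at 211 and 13.1 CPM in Tom+ and Tom- stromal cells and 780 and 8.25 CPM in mesothelial cells. In the Tom+ cells of the immunoglobulin-led cluster it was at 582 CPM. RNA of Cdkn2a, the p16 gene, was sparse, at 4.66 and 5.79 CPM in Tom+ and Tom- stromal cells, from 238 and 335 UMIs. These counts did not show it higher with the sort there. By quantitative PCR, the authors reported more p16 RNA in Tom+ than in Tom- progenitors of old gWAT. In mesothelial cells Cdkn2a was at 12.4 and 8.47 CPM. The main values that change without either set of cells are given with and without them.

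On the mm10 genome (GRCm38), Mdk lies on the minus strand of chromosome 2 from 91929805 to 91932297 and Sdc4 on the same strand of this chromosome from 164424247 to 164443887. Sdc1 lies on chromosome 12 from 8771323 to 8793715, Sdc2 on chromosome 15 from 32920723 to 33034935 and Sdc3 on chromosome 4 from 130792537 to 130826319, all on the plus strand. Lrp1 lies on chromosome 10 from 127538161 to 127621148 and Ncl on chromosome 1 from 86344719 to 86359400, both on the minus strand. Transcripts Gm12970 and Gm26716 overlap Sdc3, and Gm16217 overlaps Lrp1, on the other strand. Gm24148, Snora75, Snord82 and mmu-mir-3535 overlap Ncl on the same strand.

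RefSeq promoter windows of GRCm38.p6, from 250 bases before to 50 bases after the transcription start, were found for 5 of the 7 genes (Sdc1, Sdc3, Sdc4, Lrp1 and Ncl). Those of Sdc4 and Ncl are shown because these were the members whose levels moved together most closely over cell clusters, and that of Lrp1 because it moved the other way between cell classes. Each reads 5′ to 3′ along the gene, with the GC box GGGCGG, or CCGCCC on the other strand, in capitals. The windows are chr2:164443139-164443438, chr1:86359406-86359705 and chr10:127621099-127621398, all on the minus strand. The RefSeq start sites can differ from the ends of the gene positions given above. By those positions the Ncl window lies wholly before the gene, and the Sdc4 window wholly inside it.
Sdc4: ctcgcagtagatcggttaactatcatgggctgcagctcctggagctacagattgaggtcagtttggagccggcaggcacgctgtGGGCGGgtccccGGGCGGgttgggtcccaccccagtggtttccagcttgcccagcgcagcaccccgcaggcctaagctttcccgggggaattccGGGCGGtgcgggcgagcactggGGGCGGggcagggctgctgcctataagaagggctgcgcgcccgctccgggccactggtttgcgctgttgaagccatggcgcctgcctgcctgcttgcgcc
Ncl: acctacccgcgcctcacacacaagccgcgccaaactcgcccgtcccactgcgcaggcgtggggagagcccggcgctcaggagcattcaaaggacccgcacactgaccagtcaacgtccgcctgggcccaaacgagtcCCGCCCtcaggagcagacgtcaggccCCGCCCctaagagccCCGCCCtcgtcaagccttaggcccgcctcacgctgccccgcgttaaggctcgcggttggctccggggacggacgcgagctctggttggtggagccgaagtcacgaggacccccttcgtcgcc
Lrp1: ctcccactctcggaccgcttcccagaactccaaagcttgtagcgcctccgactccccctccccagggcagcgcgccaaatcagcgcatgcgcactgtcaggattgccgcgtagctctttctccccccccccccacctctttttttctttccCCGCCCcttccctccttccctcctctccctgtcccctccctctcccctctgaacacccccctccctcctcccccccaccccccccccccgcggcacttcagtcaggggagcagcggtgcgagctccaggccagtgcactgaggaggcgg
The GC box, a short motif bound by factors of the Sp family, occurred 4 times in the Sdc4 window, 3 times in that of Ncl and 1 time in that of Lrp1. It was in all 5 matched windows, as in 35.7% of 32851 mouse windows of this length. These 5 windows had 66.3% to 77.7% G and C, where the median of all windows was 52.7%. The TATA core TATAA, read on both strands, was found in the windows of Sdc4 and Sdc1, and in 24.9% of all windows. The E-box CACGTG and the AP-1 motif TGACTCA, each read on both strands, were in none of the 5 windows, and in 7.15% and 5.20% of all windows.

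Mdk RNA was found mainly in stromal cells. It was at 283 CPM (279 to 288) in the Tom+ stromal cells, 143 CPM (140 to 146) in Tom- stromal cells, 51.7 CPM (45.7 to 58.1) in Tom+ mesothelial cells and 55.1 CPM (52.6 to 57.8) in Tom- mesothelial cells. Tom+ stromal cells were the highest of the 4 groups, and the intervals of the mesothelial groups overlapped. With each cell thinned to 5000 UMIs, an Mdk UMI was found in 51.7% of Tom+ (50.0 to 53.5) and 35.7% of Tom- (34.3 to 37.1) stromal cells, and in 20.8% (15.9 to 26.4) and 17.5% (15.8 to 19.3) of mesothelial cells. Thinning left out 119 Tom+ and 253 Tom- stromal cells and 31 Tom- mesothelial cells. Before thinning the shares were 69.3% and 51.4% in stromal and 44.4% and 39.5% in mesothelial cells, at medians of 14235, 11270, 18602 and 14753 UMIs per cell. None of these cells can be taken to lack Mdk, and RNA free in the droplets can add UMIs to any cell. A cluster led by the mast cell protease genes Mcpt4 and Tpsb2 held 1 Mdk UMI in 17 Tom+ cells and 0 in 10 Tom- cells. Mdk RNA was unevenly spread over stromal cells. In thinned cells its variance was 3.57 times its mean in the Tom+ and 2.62 times in the Tom- library, and at least 5 Mdk UMIs were found in 307 of 3144 Tom+ and 109 of 4547 Tom- cells, which is 9.76% and 2.40%.

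**Figure D1:**
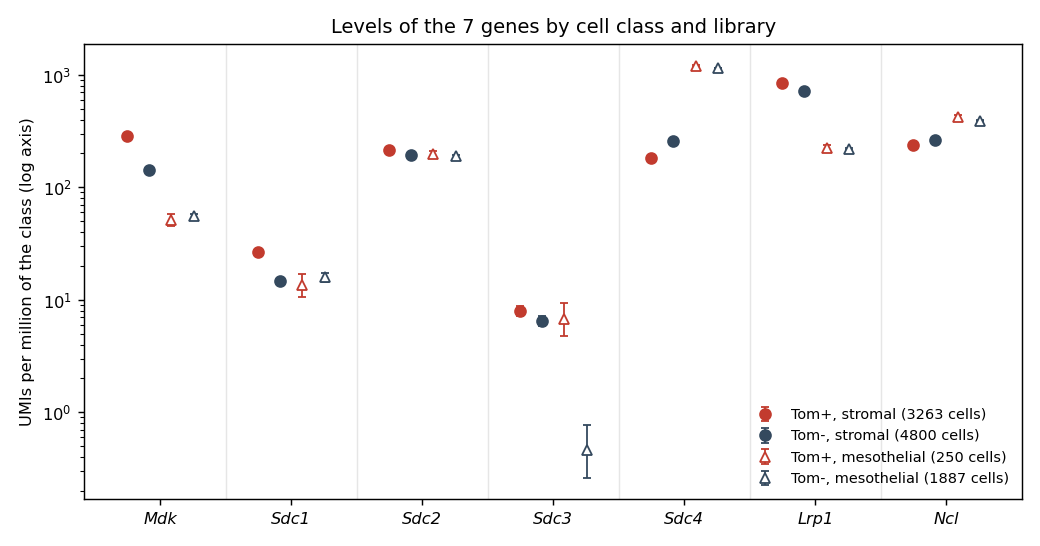
CPM of each of the 7 genes (log axis) in stromal cells (filled circles) and mesothelial cells (open triangles) of the Tom+ (red) and Tom- (blue) libraries, with exact Poisson 95% intervals. Sdc4 stands at 1201 and 1149 CPM in mesothelial cells and at 181 and 258 CPM in stromal cells, while Mdk and Lrp1 stand higher in stromal cells.

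Among the syndecans, Sdc4, which works with integrins at focal adhesions, was the one much higher in the mesothelial class. A small cluster led by Ccl21a, Calca and Ncam1, mostly of the stromal class, stood higher still, at 1575 and 1345 CPM in Tom+ and Tom- cells. Sdc4 stood at 181 CPM (177 to 185) in the Tom+ and 258 CPM (254 to 262) in the Tom- stromal cells, and at 1201 CPM (1171 to 1230) and 1149 CPM (1137 to 1161) in Tom+ and Tom- mesothelial cells. Both mesothelial groups were above both stromal groups. An Sdc4 UMI was found in 96.0% (92.8 to 98.1) and 96.8% (95.9 to 97.6) of thinned mesothelial cells, and in 46.9% (45.1 to 48.6) and 53.4% (52.0 to 54.9) of thinned stromal cells. In stromal cells Sdc4 was spread unevenly too, with a variance of 4.27 and 4.24 times the mean.

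Sdc2, the syndecan of mesenchymal cells, differed little between the groups. It was at 216 CPM (212 to 220) in the Tom+ and 194 CPM (191 to 198) in the Tom- stromal cells, and at 199 CPM (187 to 211) and 188 CPM (184 to 193) in mesothelial cells. The Tom+ mesothelial interval overlapped those of both Tom- groups, and the Tom+ stromal interval was above the others. An Sdc2 UMI was found in 56.6% to 60.4% of thinned cells in the 4 groups.

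Sdc1, known as CD138 and as a surface marker of plasma cells and epithelia, was sparse. It was at 26.4 CPM (24.97 to 27.8) in the Tom+ and 14.6 CPM (13.6 to 15.6) in the Tom- stromal cells, and at 13.5 CPM (10.6 to 17.0) and 15.9 CPM (14.5 to 17.3) in mesothelial cells. Only the Tom+ stromal interval stood apart from the other 3. Outside the immunoglobulin-led cluster, Sdc1 was at 17.7 CPM in the Tom+ and 12.2 CPM in the Tom- stromal cells.

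Sdc3, the syndecan best known from nerve and muscle, was lowest in UMIs. It was at 7.98 CPM (7.23 to 8.80) in the Tom+ and 6.44 CPM (5.81 to 7.13) in the Tom- stromal cells, from 408 and 373 UMIs. In mesothelial cells it was at 6.76 CPM (4.74 to 9.36) in the Tom+ and 0.464 CPM (0.259 to 0.765) in the Tom- library, from 36 and 15 UMIs. Of the 36 Tom+ UMIs, 33 lay in 13 cells of the immunoglobulin-led cluster, which also held 1408 of the 1465 UMIs of Lyz2, the lysozyme gene of macrophages, in Tom+ mesothelial cells. Without that cluster, Sdc3 was at 0.604 CPM in the Tom+ and 0.433 CPM in the Tom- mesothelial cells.

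The share of each syndecan in all syndecan UMIs differed between the classes. These shares compare UMIs of RNA, counted near the 3′ end and not divided by length. Sdc4 made up 84.6% (83.7 to 85.4) and 84.9% (84.5 to 85.2) of syndecan UMIs in Tom+ and Tom- mesothelial cells. In stromal cells, Sdc2 made up 50.0% (49.4 to 50.7) and Sdc4 42.0% (41.3 to 42.6) in the Tom+ library, and 41.1% (40.5 to 41.6) and 54.5% (53.9 to 55.1) in the Tom- library. Sdc2 thus led in Tom+ and Sdc4 in Tom- stromal cells. All syndecans together were at 431 and 473 CPM in Tom+ and Tom- stromal cells, and at 1420 and 1354 CPM in mesothelial cells.

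Lrp1 RNA was found in nearly all stromal cells. It stood at 852 CPM (844 to 860) in the Tom+ and 716 CPM (710 to 723) in the Tom- stromal cells, and at 223 CPM (211 to 236) and 221 CPM (216 to 226) in mesothelial cells. Both stromal groups stood above both mesothelial groups, whose intervals overlapped. An Lrp1 UMI was found in 95.1% (94.3 to 95.9) and 94.0% (93.3 to 94.7) of thinned stromal cells, and in 62.4% (56.1 to 68.4) and 62.3% (60.04 to 64.5) of thinned mesothelial cells. It was spread more evenly than Mdk, with a variance of 1.71 and 1.62 times the mean in thinned stromal cells.

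Ncl stood at 239 CPM (234 to 243) in the Tom+ and 262 CPM (258 to 266) in the Tom- stromal cells, and at 421 CPM (403 to 438) and 392 CPM (385 to 399) in mesothelial cells. It was higher in mesothelial cells in both libraries, and no pair of intervals overlapped. Its variance was 1.28 and 1.39 times the mean in thinned stromal cells, the lowest values after Sdc1 and, in the Tom- library, Sdc3.

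Set against each other within a library, the classes differed past 2-fold in Sdc4, Lrp1 and Mdk, and in Sdc3 where it was too low to be counted. In the Tom- library the log2 ratio of mesothelial over stromal levels was 2.16 (2.13 to 2.18) for Sdc4, which is 4.46-fold higher. It was -1.70 (-1.74 to -1.66) for Lrp1 and -1.37 (-1.45 to -1.30) for Mdk, which is 3.25-fold and 2.59-fold lower. These were the 3 members past 2-fold among the 6 that averaged at least 5 CPM, where 21.1% of all 10019 genes were past 2-fold, 11.9% higher and 9.22% lower. In the Tom+ library the ratios were 2.73 (2.68 to 2.78) for Sdc4, -1.93 (-2.02 to -1.85) for Lrp1 and -2.45 (-2.63 to -2.28) for Mdk, the 3 members past 2-fold of 7, against 23.2% of 10240 genes, 13.1% higher and 10.1% lower. Ncl was at 0.58 (0.55 to 0.61) in the Tom- and 0.82 (0.75 to 0.88) in the Tom+ library. Sdc2, with -0.043 and -0.12, was close to 0, and the median of all genes was 0.14 and 0.11. Sdc3 averaged under 5 CPM in the Tom- library, where its ratio, from 15 mesothelial UMIs, was -3.80 (-4.65 to -3.06), the farthest from 0 of the 7. In the Tom+ library it was -0.24 (-0.77 to 0.25), but -3.29 without the immunoglobulin-led cluster and -1.10 without cells of shared barcodes. The classes were defined by 5 genes of the same cells, so these ratios are descriptions. Sdc4, Lrp1 and Mdk stayed past 2-fold in both libraries under each alternative that gave a value. Sdc1, at -0.96 (-1.33 to -0.62) in the Tom+ library, passed 2-fold there under 4 of them, and was at -0.35 without the immunoglobulin-led cluster and -0.77 without cells of shared barcodes.

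**Figure D2:**
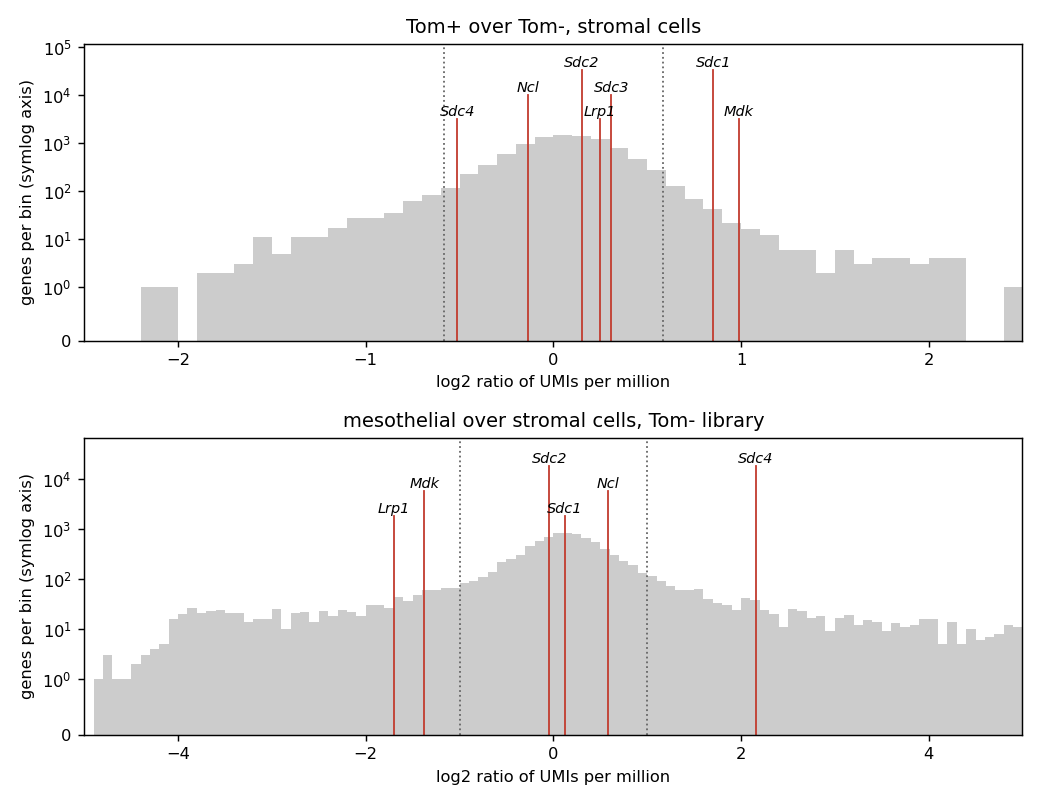
Number of genes (symlog axis, bins of 0.1) by log2 ratio of CPM, for genes averaging at least 5 CPM, with the members marked by red lines and the fold threshold by dotted lines; genes beyond the axis are not drawn. Upper panel, Tom+ over Tom- stromal cells, where Mdk and Sdc1 lie past 1.5-fold; lower panel, mesothelial over stromal cells of the Tom- library, where Sdc4, Lrp1 and Mdk lie past 2-fold.

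By raw marker UMIs, Sdc4 and Lrp1 changed in a step rather than evenly, but the groups of cells differed in depth. Median depth was 11093 and 11708 UMIs per Tom- cell with 0 and 1 to 4 marker UMIs, but 3316.5 with 5 to 9. The same number of marker UMIs is thus a larger share of a shallow cell. In Tom- cells with 0 marker UMIs, Sdc4 was at 249 CPM (244 to 254) and Lrp1 at 728 CPM. In those with 1 to 4, Sdc4 was at 279 CPM (271 to 288) and Lrp1 at 689 CPM. In those with 10 to 24, Sdc4 was at 1248 CPM (1187 to 1312) and Lrp1 at 303 CPM, and in the 534 cells with 100 or more they were at 1112 CPM (1095 to 1130) and 204 CPM. Sdc4 was thus no higher in cells with the most marker UMIs than in those just inside the mesothelial class. Mdk changed less at the edge of the class, with 145 and 138 CPM in Tom- cells with 0 and 1 to 4 marker UMIs. It fell within the class, from 120 CPM in cells with 10 to 24 to 56.3 CPM with 25 to 49 and 43.7 CPM with 100 or more. From the cells with 10 to 24 to those with 100 or more, median depth rose from 7883 to 23710 UMIs per cell. Around the thresholds in the Tom- library, Sdc4 was at 489 CPM in 46 cells with 3 or 4 marker UMIs, 1602 CPM in 12 cells with 5 or 6, 1408.5 CPM in 10 cells with 8 or 9 and 1621 CPM in 10 cells with 10 or 11. In the same cells Lrp1 was at 683.5, 318, 377 and 115 CPM. In the 4 Tom+ cells with 3 or 4 marker UMIs, Sdc4 was already at 1713 CPM, with Lrp1 at 823 CPM.

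**Figure D3:**
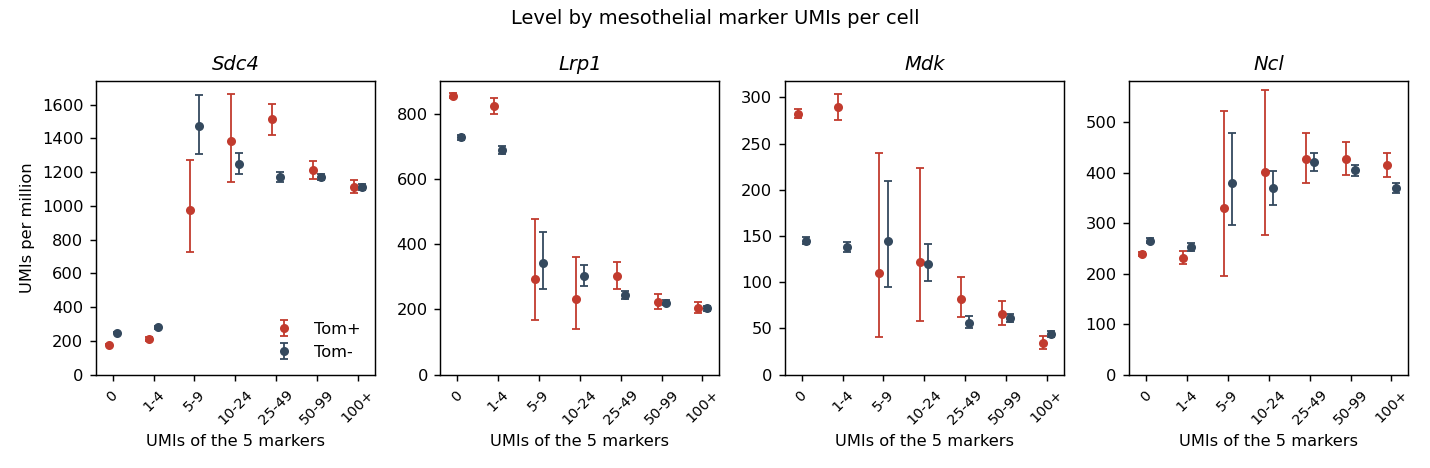
CPM of Sdc4, Lrp1, Mdk and Ncl (linear axes from 0) in cells grouped by their summed UMIs of the 5 mesothelial markers, for the Tom+ (red) and Tom- (blue) libraries, with exact Poisson 95% intervals. Sdc4 steps up and Lrp1 steps down between 1 to 4 and 5 to 9 marker UMIs, and the cells with 5 to 9 are also shallower. Mdk is lower in cells with 25 or more marker UMIs in both libraries, and already with 5 to 9 in Tom+ cells.

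Between the sorted libraries, the stromal levels differed most in Mdk and Sdc1. The log2 ratio of Tom+ over Tom- stromal cells was 0.99 (0.95 to 1.03) for Mdk, 1.98-fold higher and at percentile 99.1 of the 9778 genes averaging at least 5 CPM. It was 0.85 (0.73 to 0.98) for Sdc1, at percentile 98.7. These 2 of 7 members were past 1.5-fold, as were 7.11% of all genes, 3.86% higher and 3.25% lower. Lrp1 had a ratio of 0.25 (0.23 to 0.27), Sdc2 of 0.15 (0.11 to 0.19) and Sdc3 of 0.31 (0.10 to 0.52), all within 1.5-fold, where the median of all genes was 0.071. Sdc4 was lower in Tom+ stromal cells, at -0.51 (-0.55 to -0.47) and percentile 4.06, and Ncl was at -0.14 (-0.17 to -0.10). Since the genes were chosen with such results known, these percentiles describe the members and test nothing.

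In mesothelial cells the libraries were close. None of the 6 measured members was past 1.5-fold, as were 3.03% of 10014 genes, 1.87% higher and 1.16% lower. The ratio was -0.094 (-0.28 to 0.090) for Mdk, -0.23 (-0.61 to 0.13) for Sdc1, 0.078 (-0.017 to 0.17) for Sdc2, 0.063 (0.025 to 0.10) for Sdc4, 0.018 (-0.072 to 0.11) for Lrp1 and 0.10 (0.037 to 0.17) for Ncl. The values of Mdk and Sdc1 depended on depth. With cells thinned to 5000 UMIs, the ratio was 0.51 for Mdk and -0.83 for Sdc1. The mean was then 0.344 Mdk UMIs per Tom+ and 0.241 per Tom- mesothelial cell. Without cells whose barcode was listed in both libraries, 150 Tom+ mesothelial cells remained, and Sdc4 was at 1360 CPM in them and 1148 CPM in Tom- cells, a ratio of 0.24 (0.19 to 0.30).

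The largest cluster was divided into 12 stromal sub-clusters, numbered by falling share of Tom+ cells, of which 11 held at least 30 cells of each library. The 7 genes were left out of the clustering. Over these 11 sub-clusters, Mdk ranged from 43.4 to 500 CPM in Tom+ cells and, over 12, from 14.4 to 518 CPM in Tom- cells, a wider range than that of Lrp1, from 712 to 1029 CPM and from 544 to 858 CPM. Mdk was highest in sub-cluster 1, led by Rab3b, Chchd10 and Edn1, with 500 CPM (488 to 513) in the Tom+ and 518 CPM (486 to 553) in the Tom- cells. This sub-cluster was 83.4% Tom+ cells, and a cluster mostly of 1 library may be that library rather than a cell type. Reporter RNA in its Tom+ cells was the lowest of the 12 sub-clusters, at 43.1 CPM, where all Tom+ stromal cells had 211 CPM. In its Tom- cells the reporter was at 13.8 CPM. Sub-cluster 1 held 24.7% of the cells and 40.3% of the Mdk UMIs of the Tom+ stromal class, and 3.33% and 11.4% of those of the Tom- class. Mdk was lowest in sub-clusters 4 and 8. In sub-cluster 4, led by Dact2, Adamts16 and Nov, it was at 45.1 CPM (38.8 to 52.1) in the Tom+ and 14.4 CPM (10.2 to 19.8) in the Tom- cells. In sub-cluster 8, led by Dmkn, Nptx2 and Sfrp4, it was at 43.4 CPM (35.7 to 52.3) and 22.4 CPM (18.8 to 26.5).

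Within sub-clusters, Mdk was higher in Tom+ cells in 10 of 11, each with an interval above 0, and the exception was sub-cluster 1, with a log2 ratio of -0.051 (-0.15 to 0.050). The median of the 11 ratios was 0.90 and the highest was 1.65, in sub-cluster 4. Lrp1 was higher in Tom+ cells in all 11, with ratios from 0.17 to 0.50. Both counts were taken in cells of the same pair of libraries, so the sub-clusters are not replicates. Without sub-cluster 1 the Mdk ratio of the stromal class was 0.75 (0.70 to 0.79). With the CPM averaged at equal weight over 13 clusters it was 0.50, under 1.5-fold, at percentile 97.5 of all genes. Lrp1 was at 0.36 in this average. Clusters with a high CPM, such as sub-cluster 1 for Mdk, count most in it.

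**Figure D4:**
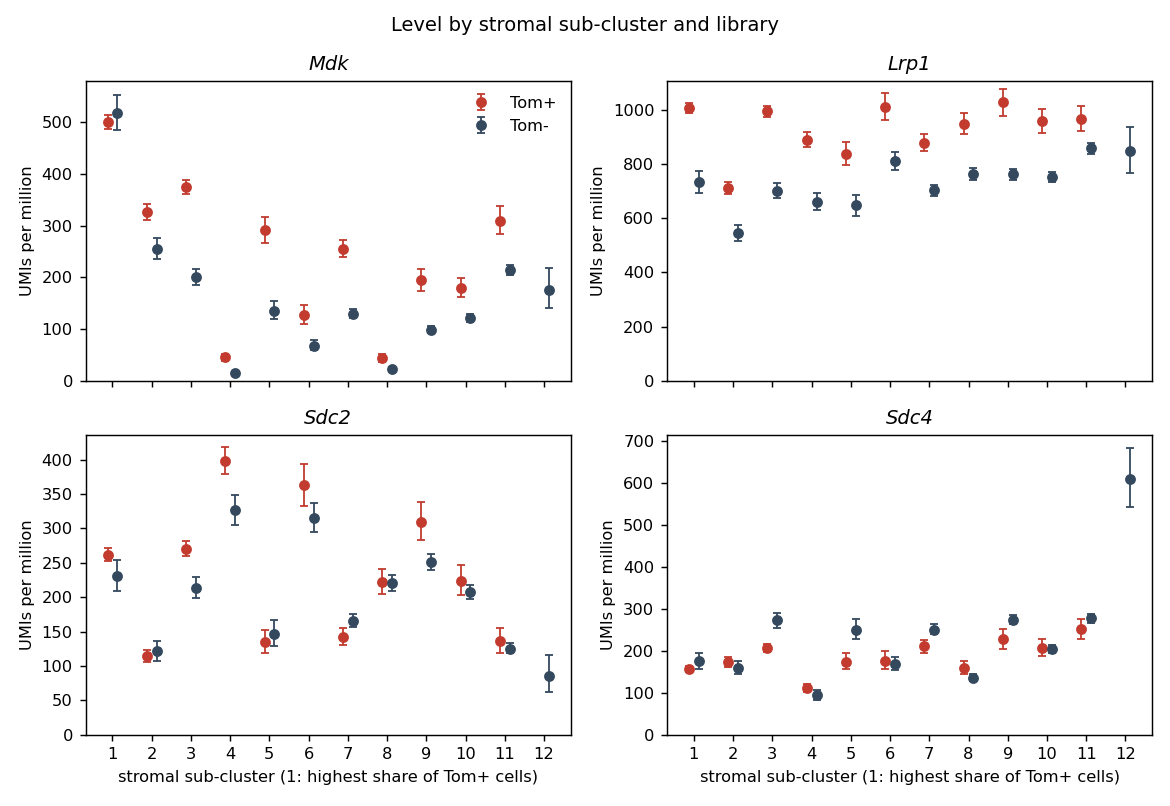
CPM of Mdk, Lrp1, Sdc2 and Sdc4 (linear axes from 0) in the 12 stromal sub-clusters, ordered by falling share of Tom+ cells, for Tom+ (red) and Tom- (blue) cells with exact Poisson 95% intervals; groups under 30 cells are not drawn. Mdk stands between 14.4 and 518 CPM and is higher in Tom+ cells except in sub-cluster 1, and Lrp1 is higher in Tom+ cells in each sub-cluster with both libraries.

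Sdc2 was highest in sub-cluster 4, where Mdk was low, with 398 CPM (379 to 418) in the Tom+ and 326 CPM (305 to 349) in the Tom- cells. It came next to this in sub-cluster 6, led by the interferon-induced genes Rsad2, Ifit1 and Ifit3b, with 363 CPM and 315 CPM. Sdc2 was higher in Tom+ cells in 8 of 11 sub-clusters. Sdc4 varied less than Mdk over the sub-clusters with both libraries, from 111 to 252 CPM in Tom+ cells. In sub-cluster 12, led by Emcn, Plagl1 and Wnt4, it was at 611 CPM (543 to 685) in 56 Tom- cells. In a separate cluster led by Ccl21a, Calca and Ncam1, with 34 Tom+ and 220 Tom- cells, Sdc4 was at 1575 CPM (1457 to 1701) and 1345 CPM (1298 to 1394), above the 1214 and 1149 CPM of the mesothelial-like cluster. Mdk was at 282 and 294 CPM in the same cluster. It held 6.95% of the Sdc4 UMIs of the Tom+ stromal class and 17.2% of those of the Tom- class. Within sub-clusters, Sdc4 was higher in Tom+ cells in 5 of 11 and lower in 6. Of their intervals, 2 were above 0 and 4 below, and the median ratio was -0.15. With the CPM averaged at equal weight over clusters, the Sdc4 ratio was 0.023 in place of -0.51, and that of Ncl 0.016 in place of -0.14. The Ccl21a, Calca and Ncam1-led cluster, with the highest Sdc4, counts most in the Sdc4 average. Ncl had ratios from -0.090 to 0.15 in the 11 sub-clusters, each with an interval that held 0.

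Sdc1 and Sdc3 followed the immunoglobulin-led cluster. Sdc1 was at 86.6 CPM (79.6 to 94.2) in its Tom+ and 69.5 CPM (59.3 to 80.9) in its Tom- cells. In the cells of this cluster with at least 50 UMIs of Jchain, the joining chain of secreted antibodies, of which there were 127 Tom+ and 42 Tom-, Sdc1 reached 100.1 CPM (91.7 to 109) and 90.6 CPM (76.7 to 106). The cluster held 5.49% of the cells and 40.8% of the Sdc1 UMIs of the Tom+ stromal class, and 1.90% and 19.5% of those of the Tom- class. Without it the stromal ratio of Sdc1 was 0.53 (0.38 to 0.68), no longer past 1.5-fold, and without cells of shared barcodes it was 0.53 (0.37 to 0.68). In the 11 stromal sub-clusters, which lie outside this cluster, Sdc1 was higher in Tom+ cells in 9 and lower in 2. Of their intervals, 5 were above 0 and 1 below, and the median ratio was 0.79. Sdc3 was at 189 CPM (155 to 228) in the 26 Tom+ cells of the cluster with at least 50 Lyz2 and under 50 Jchain UMIs, against 8.26 CPM in the Jchain-rich Tom+ cells. Without the cluster its stromal ratio was -0.074 (-0.31 to 0.16) in place of 0.31. The ratio of Mdk was 1.09 (1.05 to 1.13) without the cluster. Without it Lrp1 was at 0.33 (0.31 to 0.35), Sdc2 at 0.25 (0.21 to 0.29), Sdc4 at -0.46 (-0.50 to -0.42) and Ncl at -0.081 (-0.12 to -0.046), where the median of all genes was 0.13. Without cells of shared barcodes, Mdk was at 1.12, Lrp1 at 0.33, Sdc2 at 0.26, Sdc3 at 0.089 (-0.15 to 0.32), Sdc4 at -0.43 and Ncl at -0.11. A CPM is a share of all UMIs, and the immunoglobulin UMIs of this cluster lower the shares of its other genes.

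**Figure D5:**
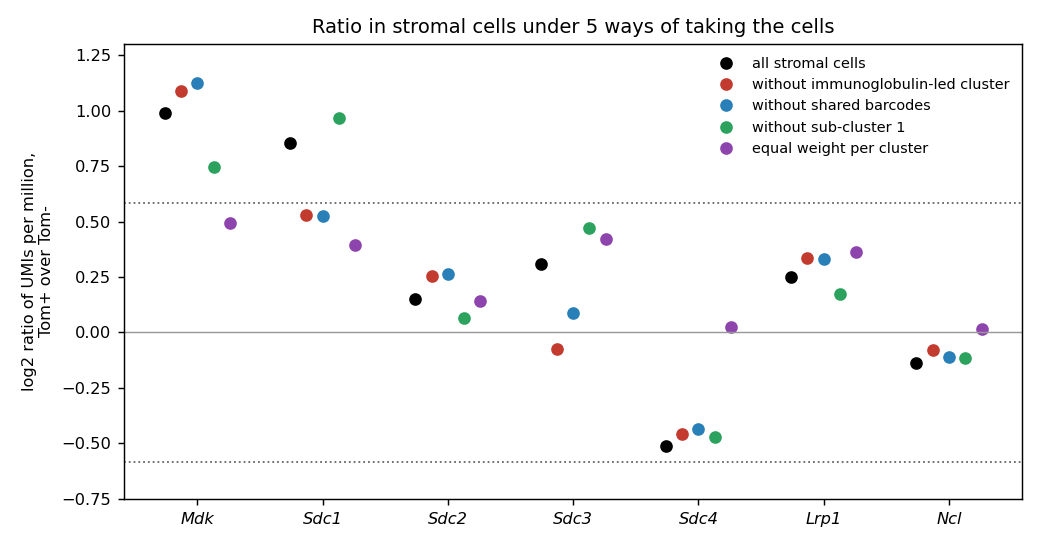
Log2 ratio of CPM of Tom+ over Tom- stromal cells for the 7 genes, with all stromal cells (black), without the immunoglobulin-led cluster (red), without barcodes listed in both libraries (blue), without sub-cluster 1 (green) and with the CPM averaged at equal weight over clusters (purple). Dotted lines mark 1.5-fold. Sdc1 lies past 1.5-fold only with all cells and without sub-cluster 1, and Mdk in all but equal weighting, among these 5 selections.

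Within the Tom+ library, Mdk was not higher in cells in which the reporter transcript was found. There, without the immunoglobulin-led cluster, Mdk was at 292 CPM in 778 stromal cells with a tdTomato UMI and 319 CPM in 2306 without, a log2 ratio of -0.13 (-0.19 to -0.074), where the median of all genes was -0.0037. Within sub-cluster 1 it was at 500 CPM in both, with a ratio of -0.00079. Sdc4 was at 220 CPM with and 181 CPM without a tdTomato UMI, a ratio of 0.28 (0.21 to 0.34), and Lrp1 at 901 and 939 CPM. Finding the transcript depends on depth, and in cells thinned to 5000 UMIs, 427 with and 2548 without a tdTomato UMI, the mean was 1.18 and 1.62 Mdk UMIs and 1.38 and 0.912 Sdc4 UMIs per cell. In both ways of counting, Mdk was lower and Sdc4 higher in these Tom+ cells with the transcript. Both differences depended on the cells used. With the immunoglobulin-led cluster, Mdk was at 218 CPM with and 317 CPM without a tdTomato UMI, and Sdc4 at 180 and 181 CPM. The median log2 ratio of all genes was then -0.29. In sub-cluster 1, thinned cells held a mean of 2.56 and 2.58 Mdk UMIs. Sdc4 was there at 156 and 158 CPM, or 0.671 and 0.795 UMIs per thinned cell. In the Tom- library without the cluster, Mdk was at 161 CPM in 609 stromal cells with and 144 CPM in 4100 without a tdTomato UMI, and Sdc4 at 237 and 267 CPM.

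Most cells with Mdk RNA also held RNA of its receptors. In thinned stromal cells without the immunoglobulin-led cluster, 1597 Tom+ cells had an Mdk UMI, and 97.4% of them had an Lrp1 UMI, 81.5% (79.5 to 83.4) a syndecan UMI and 66.3% an Ncl UMI. In the 1378 Tom+ cells without an Mdk UMI these shares were 97.5%, 79.8% (77.6 to 81.9) and 67.0%. In the Tom- library, 1611 cells had an Mdk UMI, of which 94.8% had an Lrp1 UMI and 82.6% a syndecan UMI, against 94.8% and 81.9% of the 2865 cells without. The intervals of these shares with and without Mdk overlapped for Lrp1, for Ncl and for any syndecan in both libraries. Single syndecans differed. A UMI of Sdc1 was found in 10.6% (9.12 to 12.2) of cells with and 5.37% (4.24 to 6.70) of cells without Mdk in the Tom+ library, and in 7.32% (6.10 to 8.71) and 4.54% (3.80 to 5.36) in the Tom- library. In the Tom- library, Sdc4 was found more often with Mdk, in 57.4% (54.9 to 59.8) against 51.6% (49.7 to 53.4), and Sdc2 less often, in 54.3% (51.8 to 56.7) against 58.8% (57.0 to 60.6). In the Tom+ library the intervals of these 2 overlapped, with Sdc4 in 48.4% against 47.0% and Sdc2 in 59.5% against 61.5%.

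Over 29 profiles of clusters by library, each of at least 30 cells, Pearson correlations of log2(CPM + 10) describe which genes had levels most alike. The profiles share 2 libraries and their depths, and no p is given. Among the members, Ncl and Sdc4 were most alike (r = 0.84), both high in the mesothelial-like and the Ccl21a, Calca and Ncam1-led cluster, and Sdc1 and Sdc2 least (r = -0.80). Mdk and Lrp1 had r = 0.34, and Mdk and Sdc4 0.16. The genes most like Mdk were Ctsa, a lysosomal protective protein (0.87), Apoe, the apolipoprotein and Lrp1 ligand (0.82), and Mif, a cytokine (0.80). Those most like Lrp1 were Akap13 (0.95), Papss2, which makes the sulfate donor of heparan sulfate synthesis (0.95), and Pros1, protein S (0.94). Those most like Sdc4 were Ifnar2, a subunit of the interferon alpha and beta receptor (0.94), Nectin2 (0.94) and the cadherin Cdh11 (0.93). Sdc2 was most like Cyfip1 (0.93), Dpysl2 (0.92) and S100a11 (0.91), and Ncl most like Tnfrsf12a (0.91), Msrb3 (0.90) and Steap2 (0.90). Sdc1 was most like D10Wsu102e (0.80), Pdia4 (0.79) and Ighm (0.79), and Sdc3 most like Man1b1 (0.69), Igkc (0.63) and Slc3a2 (0.63).

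Of 11 other ligands and receptors of the midkine family, 4 averaged at least 5 CPM over the stromal groups. None of these was past 1.5-fold between the libraries, against 7.11% of all genes. Pleiotrophin, the paralog of midkine encoded by Ptn, was at 0.333 and 0.518 CPM in Tom+ and Tom- stromal cells and at 1.503 and 4.94 CPM in mesothelial cells. Its phosphatase receptor Ptprz1 was at 9.77 and 11.6 CPM in Tom+ and Tom- mesothelial cells, and at 0.196 and 0.155 CPM in stromal cells. The kinase receptor Alk had at most 0.0196 CPM in the 4 groups. Itgb1, an integrin subunit that midkine also binds, was at 240 to 265 CPM in all 4.

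Of 22 measured genes of heparan sulfate synthesis and trimming, of 32 listed, 1 was higher and 2 were lower past 1.5-fold in Tom+ stromal cells, where 3.86% of all genes were higher and 3.25% lower. The kinase Fam20b was at 20.7 and 13.3 CPM in Tom+ and Tom- cells, the sulfotransferase Hs3st1 at 33.9 and 59.4 CPM, and heparanase, Hpse, at 8.18 and 12.7 CPM. Their median ratio was 0.043, under the 0.071 of all genes. Between the classes of the Tom- library, 3 were higher and 4 lower past 2-fold in mesothelial cells, against 11.9% and 9.22% of all genes. The extracellular sulfatase Sulf1 was at 194 CPM in mesothelial and 45.9 CPM in stromal cells, and Hs6st1, which adds the sulfate that Sulf1 removes, at 54.8 and 16.5 CPM. Ugdh, which makes the glucuronic acid precursor, was at 218 and 998 CPM, and Ext1, a polymerase of the chain, at 40.3 and 92.0 CPM. Among 8 measured of 10 other heparan sulfate proteoglycans, the glypican Gpc4 was lower in Tom+ stromal cells, with 12.7 and 24.3 CPM. Between the classes of the Tom- library, 2 of these 8 were higher and 4 lower past 2-fold in mesothelial cells, against 11.9% and 9.22% of all genes. Among them agrin, Agrn, was 3.11-fold higher in Tom- mesothelial than stromal cells and the glypican Gpc6 9.89-fold lower.

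Of 12 measured syndecan partners and sheddases, 1 was higher past 1.5-fold in Tom+ stromal cells, as were 3.86% of all genes. This was the membrane protease Mmp14, which cuts syndecans from the surface, with 419 and 256 CPM. Sdcbp, the adaptor syntenin, was at 282 and 257 CPM. In the low-density lipoprotein receptor family, 1 of 13 measured genes was higher past 1.5-fold in Tom+ stromal cells, as were 3.86% of all genes. This was Vldlr, with 180 and 111 CPM. Between the classes, Lrp2, known as megalin, was opposite to Lrp1, with 92.5 CPM in mesothelial and 0.466 CPM in stromal cells of the Tom- library, and 90.9 and 0.117 CPM in the Tom+ library. The adaptor Dab2 was 5.17-fold higher and Vldlr 8.08-fold lower in Tom- mesothelial cells. Of 14 measured Lrp1 ligands, 2 had a ratio of Tom+ over Tom- stromal cells above the median of all genes, 0.071. Their own median ratio was -0.15, and 11 had a lower level in Tom+ cells. Among them Thbs1, thrombospondin 1, was at 573 and 1011 CPM and Serping1, the C1 inhibitor, at 2186 and 3390 CPM, while Thbs2 was higher, with 97.5 and 64.6 CPM. Between the classes of the Tom- library, 5 of 14 ligands were lower past 2-fold in mesothelial cells, as were 9.22% of all genes and Lrp1 itself, among them the lipase Lpl (63.1 and 900.0 CPM) and the protease inhibitor Serpine2 (19.3 and 254 CPM).

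Of 22 measured nucleolar genes of ribosome biogenesis, the functional neighbours of Ncl, 1 was lower past 1.5-fold in Tom+ stromal cells, as were 3.25% of all genes. This was Nop58, with 67.4 and 111 CPM. The median ratio of the 22 was -0.064 against 0.071 over all genes, with 6 of 22 above the latter. In mesothelial cells, 16 of 23 in the Tom- and 19 of 23 in the Tom+ library had a higher level than in stromal cells, none past 2-fold. Their median ratio was 0.12 in the Tom- library, under the 0.14 of all genes, with 11 of 23 above the latter. In the Tom+ library it was 0.35 against 0.11 over all genes, with 19 of 23 above the latter. Early response genes that tissue dissociation is known to induce moved with the sort. Of 18, 17 had a lower level in Tom+ stromal cells, with a median ratio of -0.28. None of the 18 was above the median of all genes, 0.071. Myc, Socs3, Ier3 and Hspa1a were lower past 1.5-fold, as were 3.25% of all genes. Myc was at 166 and 329 CPM and Socs3 at 502 and 908 CPM. Whether they have a part in the lower Sdc4 and Ncl levels of Tom+ stromal cells was not tested.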

How the data were processed

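The authors deposited, per library, UMI counts per gene and barcode, made with Cell Ranger 3.0.2 on mm10 and not normalized. The libraries hold 61119807 (Tom+) and 96872394 (Tom-) UMIs over 5566 and 11838 barcodes. The members and all gene lists were chosen with earlier results of these data known. Cells were filtered and classed as described, counts were summed per class and library, and ratios were compared with all genes at a mean of at least 5 CPM. Intervals are exact Poisson (levels) and Clopper-Pearson (shares and ratios). The named genes are the 7 members and, from each list, up to 4 per direction past the fold of that comparison, with examples within it named after their values were seen. Cells were clustered with scanpy 1.11.5 and leidenalg 0.10.2 (2000 variable genes without the members, 30 components, 20 neighbours), without correction between libraries, and sub-clusters came from the lowest resolution giving 12. The computation of ratios was checked on simulated counts with Poisson noise, as the intervals assume. The wider spread between cells was not simulated. Called doublets were kept. Alternatives were another scaling, filters on genes and mitochondrial share, class thresholds, classes from clusters, per-cell means, thinning, doublets and cluster weights. PCR copies are collapsed by UMI. Lists of endothelial, immune, pericyte, Schwann cell and adipocyte markers were also summed, and in stromal cells these were at 8.28 and 9.17, 393 and 203, 86.0 and 118, 22.3 and 22.9, and 3.91 and 6.82 CPM in the Tom+ and Tom- libraries. In mesothelial cells the same lists were at 134 and 90.9, 739 and 507, 479 and 583, 77.4 and 81.0, and 0.376 and 1.14 CPM. The highest single genes of the first 4 lists there were Kdr, Cd74, Acta2 and Mbp. Amino acid sequences were not used here.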

Additional observations from a re-analysis of the deposited data

Results flagged for a closer look

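By sign, the difference between Tom+ and Tom- cells was opposite in the stromal and the mesothelial class for Mdk, Sdc1, Sdc4 and Ncl. For Sdc4 and Ncl both intervals also lay off 0. With cells thinned to 5000 UMIs, the mesothelial ratio of Mdk was 0.51 in place of -0.094, and its sign was then that of stromal cells. The intervals of the thinned shares with an Mdk UMI overlapped between the libraries. For Sdc4, the log2 ratio of Tom+ over Tom- was -0.51 in stromal and 0.063 in mesothelial cells, a difference of -0.57. For Ncl it was -0.14 and 0.10, a difference of -0.24. With the CPM averaged at equal weight over clusters, the stromal ratio was 0.023 for Sdc4 and 0.016 for Ncl, and then neither was opposite to the mesothelial one. Clusters with a high CPM count most in that average. Over 11 stromal sub-clusters the median ratio was -0.15 for Sdc4 and 0.031 for Ncl. With 1 library in each group, these differences were not tested.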

How the results depend on the processing

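The count of members past 1.5-fold between Tom+ and Tom- stromal cells was 2 of 7, where 7.11% of all genes were past it. The count was 1, Mdk, with classes taken from clusters, without the immunoglobulin-led cluster and without barcodes listed in both libraries. It was 0 with the CPM averaged at equal weight over clusters, where clusters with a high CPM count most. In mesothelial cells it was 0 of 6, where 3.03% of all genes were past 1.5-fold. It was 1 with no filter on low genes, which lets Sdc3 in, and 1, Sdc1, which was lower, with cells thinned to 5000 UMIs. That Sdc1 value rests on 11 Tom+ cells with an Sdc1 UMI. With cells thinned to 3000 UMIs, the share with an Sdc1 UMI was instead higher in Tom+ cells, at 5.60% against 4.31%. The share of all genes under each alternative is not given here, so these counts cannot be set against it. Leaving out the immunoglobulin-led cluster, the shared barcodes or sub-cluster 1 was chosen after seeing the data. Thinned to 3000 UMIs in place of 5000, the share of stromal cells with an Mdk UMI was 42.3% in the Tom+ and 27.4% in the Tom- library. At a higher resolution, Mdk was higher in Tom+ cells in 12 of 14 sub-clusters. Of 371 single-gene ratios under an alternative, 271 stayed within counting error of the value reported, 100 moved and 0 past a fold threshold changed sign. Equal weighting gave no value between classes, since no cluster held 30 cells of both. The doublets called by Scrublet were 2 cells, 0.057%, of the Tom+ and 122, 1.82%, of the Tom- library, and how many it missed was not tested. No paired analysis was possible because each group holds 1 library. Depth limits Sdc3 and Sdc1 most.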
